A study of Mus musculus with 64 samples.

Results

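The response to 3 h of CORT was compared with the response to 5 days of CORT in the hippocampus of WT mice. CORT is corticosterone, the main glucocorticoid of rodents. The members are the hippocampal RNA-seq libraries of WT mice in 2 cohorts, 21 of the 64 libraries of the series. They were chosen by the labels for tissue, genotype and treatment, and by the study's own removal of 1 vehicle mouse, H13. All mice were adult males of 10 to 18 weeks, F1 hybrids of a C57BL/6J father and a 129sv mother that carried a deletion of Ube3a exon 5 on her paternal allele. The WT offspring had not inherited it, whereas their AS littermates, a model of Angelman syndrome, carried it on the maternal allele. In the acute cohort, 6 mice received vehicle (ethanol in PBS) and 6 received CORT at 3 mg/kg under the skin between 9:00 and 11:00, and the left hippocampus was taken 3 h later. In the continuous cohort, 4 mice carried a vehicle pellet of cholesterol and 5 a pellet with 20 mg CORT in cholesterol, implanted by surgery for 5 days of release, and the left hippocampus was taken on day 6. Mice of the acute cohort had also been bled from the tail vein 5 days before. Duration is therefore tied to route, dose, surgery and cohort, and these cannot be told apart. The question was which genes CORT altered at 3 h only, at 5 days only, at both times in the same direction or at both times in opposite directions.

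Corticosterone crosses into the brain and binds a pair of nuclear receptors, the mineralocorticoid receptor (MR, gene Nr3c2) and the glucocorticoid receptor (GR, gene Nr3c1). MR has the higher affinity and is largely occupied at resting hormone levels, whereas GR is filled during stress and at the daily peak. Bound GR moves to the nucleus and acts on DNA directly or through other transcription factors, and it also limits its own signalling, for instance by inducing the co-chaperone gene Fkbp5. The hippocampus holds much of both receptors, in neurons, glia and vessel cells.

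The effect of CORT was estimated within each cohort, and the difference between the effects, continuous minus acute, was tested in the same fit. A difference between cohorts that changed vehicle and CORT mice by the same factor therefore did not enter, whereas one in the vehicle mice alone would. Counts on genes per library ranged from 20445418 to 21052967 in the acute mice and from 19112929 to 21765362 in the continuous mice. Levels are given as CPM, the counts of a gene scaled to a common library size, and a count of 3 in these libraries is 0.138 to 0.157 CPM, which covers counting error only. The cohorts stood apart on the first principal component of log2 CPM, which held 46.9% of the variance, and the summed level of the 12 hippocampal neuron markers was 2300 to 3160 CPM in the acute and 1190 to 1800 CPM in the continuous mice. The tables also list different gene IDs, 55414 and 55573 with 52225 shared, so levels are not compared across cohorts, only effects. Acute CORT mouse H8 stood apart on the second component (10.9% of the variance), at -37.1 against -20.1 to 29 in the other mice. Mice also stood apart in markers of other tissues, among them acute CORT mouse H11, where the 8 thalamus markers summed to 186 CPM against 79.9 to 110 in the other acute mice. In the continuous cohort these markers summed to 120 CPM in vehicle mouse H4 and 112 CPM in vehicle mouse H17. They summed to 73.9 and 62 CPM in vehicle mice H1 and H6 and to 49.2 to 77.7 CPM in the CORT mice. The median log2 effect of these markers was 0.35 at 3 h and -0.42 at 5 days, and its part in the results was not tested. The summed level of the 9 choroid plexus markers tested (of 13 listed) was 1650 CPM in acute vehicle mouse H6, 1700 CPM in continuous vehicle mouse H6 and 3920 CPM in continuous vehicle mouse H17, against 92.2 to 291 CPM in the other 18 mice. The 5 blood markers summed to 38.5 to 55 CPM in the continuous vehicle mice and 71.6 to 177 CPM in the continuous CORT mice, without overlap, and to 53.4 to 154 and 96.8 to 191 CPM in the acute vehicle and CORT mice. For the genes described, calls lost without the 3 mice with choroid plexus transcripts are given beside the result. Unless another fit is named, edgeR values are from the fit of all 21 mice without a covariate. In whole tissue, fewer cells of a type and less RNA per cell cannot be told apart.

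Acute CORT altered 171 of 14809 genes tested (1.15%) at an adjusted p under 0.05, of which 131 rose (0.885%) and 40 fell (0.27%). Continuous CORT altered 334 genes (2.26%), with the balance turned the other way, since 109 rose (0.736%) and 225 fell (1.52%). The difference between the effects passed the threshold for 43 genes (0.29%). It was positive, meaning a higher value after continuous CORT, for 6 genes (0.0405%) and negative for 37 (0.25%). Without the 3 mice with choroid plexus transcripts, the continuous count dropped to 126, while 149 genes passed in the acute effect and 33 in the difference. Only 2 continuous vehicle mice were left in that fit.

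Of the 459 genes altered at either time, 46 were altered at both, all in the same direction, with 34 higher and 12 lower. These were 26.9% of the genes altered at 3 h and 13.8% of those altered at 5 days. In the fit without the 3 mice with choroid plexus transcripts 18 genes were shared, and 17 of the 46 kept both calls, and with the choroid plexus level as a covariate 23 were shared and 20 of the 46 kept both. A change at 3 h only, meaning that the acute effect and the difference passed the threshold and the continuous effect did not, was found for 7 genes, all of which rose. A change at 5 days only was found for 33 genes, 4 higher and 29 lower. Both counts moved with the fit, the first to 24 with DESeq2, 27 with limma-voom, 21 without acute CORT mouse H8, 4 without continuous CORT mouse H12 and 3 without continuous vehicle mouse H4, and the second to 72 with DESeq2, 61 with limma-voom and 20 without continuous CORT mouse H20. The number of genes with a called difference was 68 without acute CORT mouse H8 and 26 without continuous CORT mouse H20. No gene passed the threshold at both times in opposite directions with edgeR on all 21 mice without a covariate, with DESeq2 or in the fits of each cohort alone, and 1 did with limma-voom, as in 3 other edgeR fits (without acute CORT mouse H8, without acute H6 and H8, and with the choroid plexus level as a covariate). At an unadjusted p under 0.05 at both times, 36 genes moved in opposite directions and 368 in the same one. The largest set could not be placed, since 118 genes passed at 3 h and 255 at 5 days without a detectable difference between the times. The effects of all genes, each estimated from its own set of mice, had a Pearson r of 0.352 across 14809 genes, which share libraries and are not independent replicates. The sign was the same at both times for 55.2% of all genes tested, for 87.1% of the 171 genes altered at 3 h and for 79.6% of the 334 altered at 5 days.

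**Figure D1:**
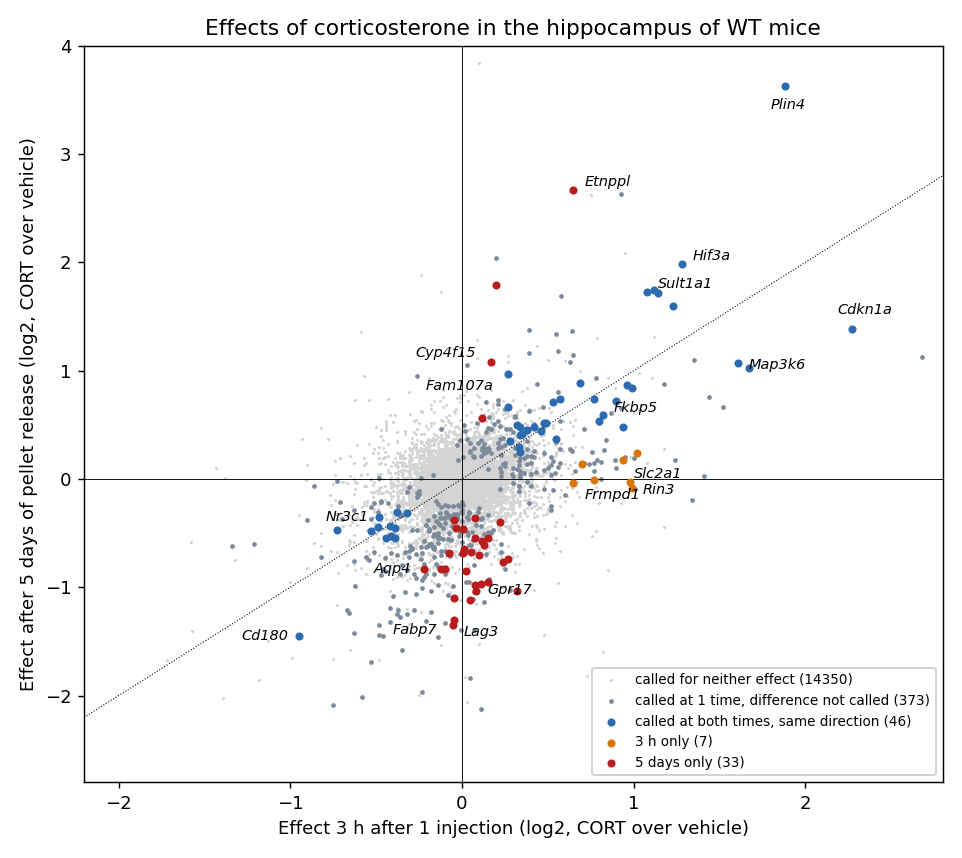
Each point is a gene, with its effect 3 h after an injection on the x axis and after 5 days of pellet release on the y axis (log2, CORT over vehicle, WT hippocampus). Colours mark the genes called at both times (46), at 3 h only (7) and at 5 days only (33), the dotted line marks equal effects, and 7 genes lie outside the axes. The 3 h only genes lie to the right near y = 0 and most 5 days only genes lie below 0 near x = 0.

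Genes known as GR targets made up a part of the shared response. Their list was chosen with earlier results of these data known, so its counts are no independent support. Of the 34 targets tested, 19 rose at 3 h and 20 rose at 5 days (0.885% and 0.736% of all genes), none fell, and 16 were among the 46 shared genes. When the 3 mice with choroid plexus transcripts were left out, 17 rose at 3 h and 7 at 5 days, with medians of 0.45 and 0.36. Their median log2 effect was 0.47 at 3 h and 0.46 at 5 days, against -0.0011 and 0.014 over all genes, and the difference passed the threshold for 1 of them. The shared genes as a whole were of like size at both times, with a median absolute log2 effect of 0.51 at 3 h and 0.53 at 5 days, and the effect was larger at 5 days for 26 of the 46.

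Fkbp5 (ENSMUSG00000024222, chr17:28399094-28517527, GRCm38) was at 61 to 73.9 CPM (median 66.4) in the acute vehicle mice and at 108 to 133 CPM (median 116) in the acute CORT mice. In the continuous cohort it was at 68.9, 81.7, 62.4 and 54.8 CPM in the vehicle mice and at 101, 100, 106, 91.3 and 106 CPM in the CORT mice. Every CORT mouse was above every vehicle mouse of its cohort. The log2 effect was 0.82 ± 0.0793 (SE) at 3 h (adjusted p = 1.31e-06) and 0.59 ± 0.0924 at 5 days (adjusted p = 0.000651), and their difference, -0.23 with a 95% interval of -0.48 to 0.022, was not called (adjusted p = 0.637). Tsc22d3, which encodes the anti-inflammatory leucine zipper protein GILZ, rose by 0.8 at 3 h and by 0.54 at 5 days on the log2 scale (adjusted p = 9.92e-06 and 0.00501), and without the 3 mice with choroid plexus transcripts its effect at 5 days was 0.38 (adjusted p = 0.181). The gene of the receptor itself, Nr3c1, fell by 0.48 at 3 h (adjusted p = 0.00092) and by 0.35 at 5 days (adjusted p = 0.039), and its effect at 5 days was -0.23 without those mice (adjusted p = 0.506). Nr3c2 was not called, with log2 effects of -0.2 (adjusted p = 0.346) and -0.21 (adjusted p = 0.317). With 1 mouse left out, the call of Nr3c1 at 5 days was lost in 8 fits, with an adjusted p of up to 0.155 without continuous vehicle mouse H17.

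Cdkn1a, the gene of the cyclin-dependent kinase inhibitor p21, was at 5.26 to 14.9 CPM (median 7.88) in acute vehicle and 31.2 to 67 CPM (median 37.7) in acute CORT mice, a log2 effect of 2.27 ± 0.202. At 5 days it was at 4, 4.4, 4.12 and 6.07 CPM with vehicle and at 10.2, 11.3, 11.2, 15.7 and 12.6 CPM with CORT, a log2 effect of 1.39 ± 0.256. The groups did not overlap at either time, and the difference of -0.89 was not called (adjusted p = 0.41). Sult1a1, a sulfotransferase gene, ran the other way, from 1.08 at 3 h to 1.73 at 5 days, with a difference of 0.65 (adjusted p = 0.0937). That difference was called under 4 of the 34 alternatives. Pnpla2, the gene of the lipase that starts triglyceride breakdown, rose by 0.94 at 3 h and by 0.48 at 5 days, the hypoxia-inducible factor gene Hif3a by 1.28 and 1.99, and the astrocyte connexin gene Gjb6 by 0.57 and 0.74. Mfsd2a, which encodes the lipid carrier of brain endothelium, rose by 0.77 at 3 h and by 0.74 at 5 days. The call of Pnpla2 at 5 days was lost without continuous vehicle mouse H6 (adjusted p = 0.0812) and, at 0.36, without the 3 mice with choroid plexus transcripts (adjusted p = 0.33). A gene on the other strand overlaps Sult1a1.

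The 12 shared genes that fell did so by 0.32 to 0.95 at 3 h and by 0.3 to 1.45 at 5 days on the log2 scale. Among them were a pair of receptor genes typical of microglia. Cx3cr1, the fractalkine receptor, was at 51.8 to 63.6 CPM (median 56.7) in acute vehicle and 43.6 to 49.7 CPM (median 44.5) in acute CORT mice. In the continuous cohort it was at 67, 60.3, 62.1 and 59.7 CPM with vehicle and at 51.6, 48.6, 49.2, 54.2 and 47.6 CPM with CORT. The CORT mice lay below the vehicle mice at both times, with log2 effects of -0.32 ± 0.056 and -0.31 ± 0.0642, and the 95% interval of their difference was -0.17 to 0.18. P2ry12, the ADP receptor of resting microglia, fell by 0.39 and 0.54, the laminin receptor gene Itga6 by 0.53 and 0.48, Rgs20, a regulator of G protein signalling, by 0.39 and 0.45, and the monocarboxylate transporter gene Slc16a1 by 0.44 and 0.54. Genes overlap P2ry12 and Rgs20 on the other strand and Cx3cr1 on both, and it is not stated whether strand was used in counting. Without acute vehicle mouse H2, P2ry12 was not called at 3 h (adjusted p = 0.0603). Leaving out the 3 mice with choroid plexus transcripts gave effects at 5 days of -0.39 for Rgs20 (adjusted p = 0.118) and -0.44 for Slc16a1 (adjusted p = 0.0663).

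The difference between the effects was called for 2 of the 46 shared genes, while for a further 7, Cdkn1a, Sult1a1, Pnpla2 and Hif3a among them, its unadjusted 95% interval left out 0 without a call. Fam107a (ENSMUSG00000021750, chr14:8296274-8318023), which encodes an actin-binding protein known to rise with stress and glucocorticoids, was at 334 to 366 CPM (median 338) in acute vehicle and 372 to 478 CPM (median 417) in acute CORT mice. After 5 days it was at 210, 221, 217 and 205 CPM with vehicle and at 434, 419, 398, 438 and 394 CPM with CORT. The groups were apart at both times, narrowly at 3 h and widely at 5 days. The log2 effect was 0.27 ± 0.0519 at 3 h and 0.97 ± 0.0616 at 5 days, a difference of 0.69 ± 0.0799 (adjusted p = 0.000105) that passed under all 34 alternatives. Acot11, an acyl-CoA thioesterase gene, rose by 0.27 at 3 h and by 0.67 at 5 days, a difference of 0.4 (adjusted p = 0.034). The latter call was lost in 13 of the fits with 1 mouse left out, with an adjusted p of up to 0.102 without continuous vehicle mouse H1.

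Promoters were searched for the palindrome that GR binds as a dimer, AGAACA followed by 3 bases of any kind and TGTTCT, with up to 2 of the 12 fixed bases changed. The window ran from 250 bases before to 50 after each start site in RefSeq (GRCm38.p6), and 36 of the 46 shared, all 7 of the 3 h only and 22 of the 33 genes of the 5 days only set were matched by symbol. Such a match was found for 2 of the 36 shared genes (5.56%), 0 of the 7 and 0 of the 22, against 142 of 11060 tested genes (1.28%) and 567 of all 27025 genes with a promoter (2.1%). The palindrome reads the same on both strands, so 1 strand was searched. The 2 matches lay before a start site of Fam107a and of Sult1a1, both described above, and are shown in capitals with up to 40 bases on either side, on the strand of the gene. The printed stretch ends at the base before the start site at the latest, which shortens that of Sult1a1. RefSeq lists several starts for Fam107a, and the one with the match lies inside the gene rather than at its outer 5′ end.
Fam107a, chr14:8309844-8309938, minus strand, match from 119 bases before the start site: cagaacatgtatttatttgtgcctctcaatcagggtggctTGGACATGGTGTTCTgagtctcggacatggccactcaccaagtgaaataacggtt
Sult1a1, chr7:126676419-126676492, minus strand, match from 34 bases before the start site: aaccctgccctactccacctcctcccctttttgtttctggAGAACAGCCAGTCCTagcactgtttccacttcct
A match in letters is no evidence of binding, and its absence from this window says nothing about sites elsewhere. The 6-letter AGAACA or its complement TGTTCT, which also occurs within such a palindrome, stood in 13.9% of the shared, 14.3% of the 3 h only and 18.2% of the 5 days only promoters and in 15% of the promoters of all tested genes.

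The 7 genes altered at 3 h only rose by 0.65 to 1.02 on the log2 scale, and their effects at 5 days ran from -0.087 to 0.24. Slc2a1 (ENSMUSG00000028645, chr4:119108711-119137983), which encodes GLUT1, the glucose transporter of the blood-brain barrier and of astrocytes, was at 85.7 to 102 CPM (median 90.1) in acute vehicle and 164 to 200 CPM (median 171) in acute CORT mice. On day 6 it was at 85.5, 105, 68.8 and 80 CPM with vehicle and at 97.6, 94.8, 91, 107 and 90.8 CPM with CORT. The acute groups were far apart and the continuous groups overlapped. The effect was 0.94 ± 0.0765 at 3 h and 0.18 with an interval of -0.0011 to 0.37 at 5 days, a difference of -0.76 ± 0.116 (adjusted p = 0.00269) that held under all 34 alternatives.

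Rin3 (ENSMUSG00000044456, chr12:102283048-102390855), the gene of a Rab5 exchange factor in endocytosis, was at 2.81 to 4.85 CPM (median 3.46) in acute vehicle and 6.5 to 7.85 CPM (median 6.68) in acute CORT mice. After 5 days the values were 2.3, 2.66, 2.33 and 2.44 CPM with vehicle and 2.29, 2.21, 2.21, 2.48 and 2.27 CPM with CORT. Every acute CORT mouse exceeded every acute vehicle mouse, whereas the continuous groups overlapped. The effect was 0.99 ± 0.109 at 3 h and -0.087 ± 0.138 at 5 days, a difference of -1.07 (adjusted p = 0.00357).

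Frmpd1, whose product binds an activator of G protein signalling, was at 17.8 to 19.4 CPM (median 18.7) in acute vehicle and 25 to 31.1 CPM (median 30.1) in acute CORT mice. At 5 days it was at 10.5, 13.3, 12.3 and 13.9 CPM with vehicle and at 11.5, 11.8, 11.8, 11.4 and 14.4 CPM with CORT. Its difference was -0.68 (adjusted p = 0.00331) and was -0.6 without the 3 mice with choroid plexus transcripts (adjusted p = 0.0749). Cmtm3 rose by 1.02 at 3 h, and its effect at 5 days was 0.24 with an interval of 0.0089 to 0.47 that lay just above 0, so a smaller rise at 5 days remains possible for it. Klhdc7a rose by 0.7 at 3 h with a difference of -0.56 (adjusted p = 0.0192), which was -0.43 without those mice (adjusted p = 0.237). The remaining pair, named because the set is small and chosen after their values were seen, was Notch4, an endothelial receptor gene, with 0.77 at 3 h and -0.0084 at 5 days (difference adjusted p = 0.0244), and the predicted gene Gm11627, with 0.98 and -0.029 (difference adjusted p = 0.0266). With 1 mouse left out, the highest adjusted p of the difference was 0.0535 for Cmtm3 and 0.0812 for Notch4, both without continuous vehicle mouse H4, 0.0587 for Klhdc7a without H17 and 0.0905 for Gm11627 without H1.

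**Figure D2:**
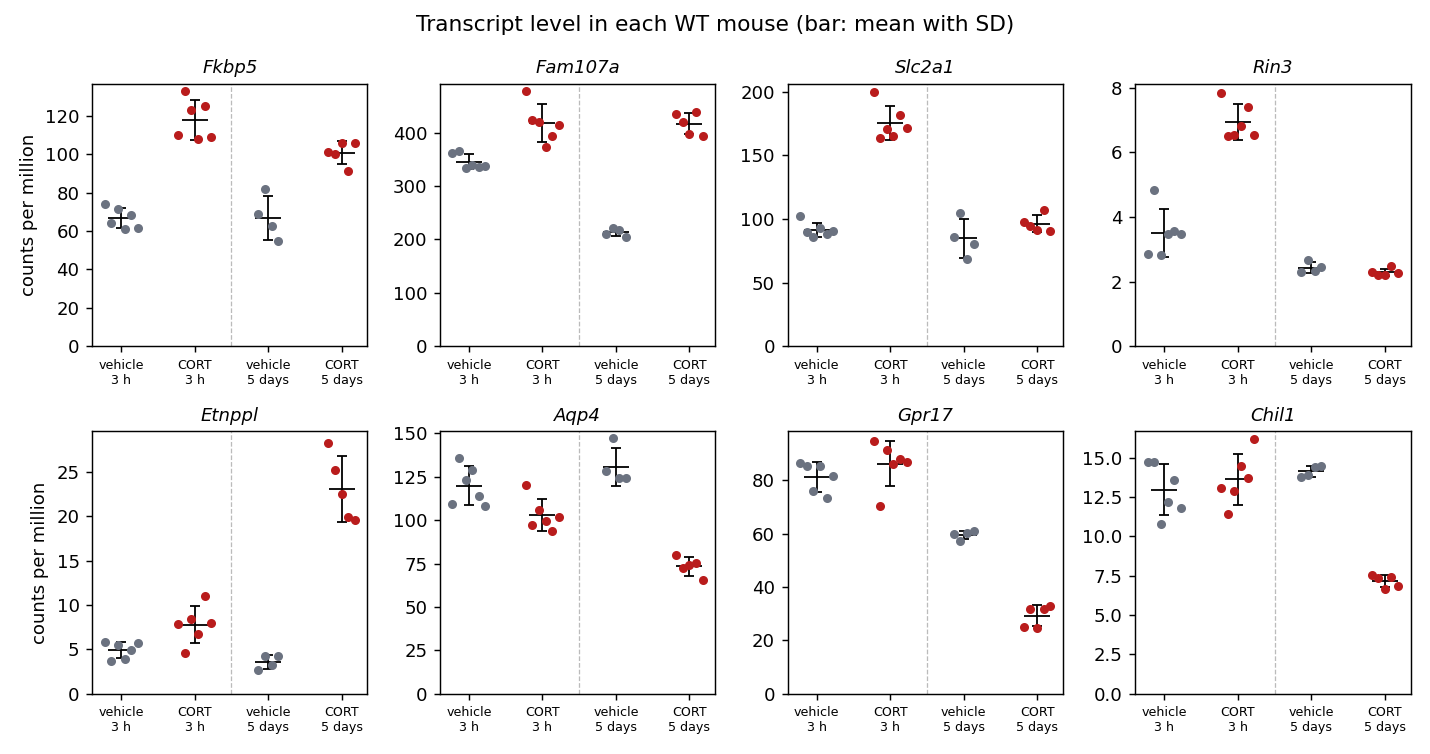
Level of 8 genes in each WT mouse (CPM, axes from 0), with vehicle in grey and CORT in red, the acute cohort left and the continuous cohort right of the dashed line. The bars are group means with the SD (n = 6, 6, 4 and 5). Fkbp5 and Fam107a rose at both times, Slc2a1 and Rin3 were called at 3 h only, and Etnppl, which rose, and Aqp4, Gpr17 and Chil1, which fell, at 5 days only (Etnppl also at 3 h with the choroid plexus level as a covariate).

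At 5 days only, 4 genes rose, and 2 of the 3 described here are genes of astrocytes. Etnppl (ENSMUSG00000019232, chr3:130617448-130637521), which encodes an enzyme that breaks down phosphoethanolamine, was at 3.74 to 5.89 CPM (median 5.25) in acute vehicle and 4.64 to 11 CPM (median 7.93) in acute CORT mice. In the continuous cohort it was at 2.7, 4.27, 3.22 and 4.26 CPM with vehicle and at 28.3, 25.2, 22.5, 19.9 and 19.6 CPM with CORT. The acute groups overlapped, and the lowest continuous CORT mouse was far above the highest vehicle mouse. The effect was 2.67 ± 0.199 at 5 days and 0.65 at 3 h with an interval of 0.3 to 1 (adjusted p = 0.0674), and the difference was 2.02 ± 0.259 (adjusted p = 0.000322). Its place in the 5 days only set rests on the threshold, since with the choroid plexus level as a covariate it was also called at 3 h (0.77, adjusted p = 0.0249), with a difference of 1.85 (adjusted p = 0.00783).

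Cyp4f15, a fatty acid hydroxylase gene, was at 11.3 to 15.8 CPM (median 13.3) in acute vehicle and 14 to 16 CPM (median 15.1) in acute CORT mice. After 5 days it was at 12.9, 12.2, 10.7 and 10.2 CPM with vehicle and at 25.4, 28, 20.8, 23.2 and 24.3 CPM with CORT, a log2 effect of 1.08 ± 0.0996 against 0.17 ± 0.0862 at 3 h (difference adjusted p = 0.00117). Aldoc, the glycolytic aldolase of astrocytes, rose by 0.56 at 5 days with an effect of 0.12 at 3 h, and its difference of 0.44 (adjusted p = 0.0278) was 0.37 without the 3 mice with choroid plexus transcripts (adjusted p = 0.151), and reached an adjusted p of 0.082 without H17 alone.

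The 29 genes that fell at 5 days only did so by 0.36 to 1.35 on the log2 scale, with effects of -0.22 to 0.32 at 3 h. The smallest p for the difference belonged to Gpr17 (ENSMUSG00000052229), which encodes a receptor of oligodendrocyte precursors on the way to myelination. It was at 73.2 to 86.3 CPM (median 83.4) in acute vehicle and 70.5 to 94.8 CPM (median 87.4) in acute CORT mice. On day 6 it was at 59.7, 57.4, 60.1 and 61 CPM with vehicle and at 25.1, 31.8, 24.7, 31.7 and 32.9 CPM with CORT. The acute groups overlapped, and no continuous CORT mouse came near a vehicle mouse. The effect was -1.03 ± 0.0878 at 5 days and 0.085 ± 0.0741 at 3 h, a difference of -1.11 ± 0.115 (adjusted p = 3.16e-05). Lims2, the gene of an adaptor at integrin contacts, spans Gpr17 on the opposite strand and also fell at 5 days, by 0.77, with a difference of -1.02 (adjusted p = 0.00297), and reads of the pair cannot be told apart if strand was not used in counting. Among other genes of the oligodendrocyte lineage on the list, Opalin fell by 1.42 at 5 days (adjusted p = 0.00823) with a difference of -0.79 that was not called (adjusted p = 0.614) and with the call at 5 days lost without vehicle mouse H17 (adjusted p = 0.0509) and without the 3 mice (-1.16, adjusted p = 0.145), and the remaining 19 of 21 members tested were called in neither effect by edgeR.

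Chil1 (ENSMUSG00000064246, chr1:134182176-134190181), the gene of a secreted chitinase-like protein of astrocytes, was at 10.8 to 14.7 CPM (median 12.9) in acute vehicle and 11.4 to 16.2 CPM (median 13.4) in acute CORT mice. At 5 days it was at 13.8, 13.9, 14.4 and 14.5 CPM with vehicle and at 7.58, 7.35, 6.69, 7.44 and 6.82 CPM with CORT. The continuous groups were apart with little spread within each, and the effect was -0.98 ± 0.0972 at 5 days and 0.075 ± 0.0826 at 3 h (difference -1.05, adjusted p = 0.000168). Slc13a3, a carrier of dicarboxylates such as N-acetylaspartate, was at 14.5, 16.5, 13 and 16.6 CPM with vehicle and at 7.23, 8.11, 8.42, 8.79 and 6.56 CPM with CORT at 5 days, with a difference of -1.11 (adjusted p = 0.00109). Pbxip1, whose product binds PBX transcription factors, fell by 0.54 at 5 days and had a difference of -0.62 (adjusted p = 0.00111).

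Further astrocyte genes fell at 5 days only. Aqp4 (ENSMUSG00000024411), the water channel of astrocyte endfeet, was at 108 to 136 CPM (median 118) in acute vehicle and 93.5 to 120 CPM (median 101) in acute CORT mice. In the continuous cohort it was at 128, 147, 124 and 124 CPM with vehicle and at 79.7, 72.3, 74.1, 75.2 and 65.3 CPM with CORT. The acute groups overlapped while the continuous ones did not. The effect was -0.83 ± 0.0802 at 5 days and -0.22 at 3 h, with an interval of -0.36 to -0.074 that left out 0 although the call did not pass (adjusted p = 0.184), and the difference was -0.62 (adjusted p = 0.00571). Fabp7, a fatty acid binding protein of astrocytes and neural progenitors, was at 21.3, 31.4, 26.4 and 21.6 CPM with vehicle and at 9.69, 11.5, 9.42, 10.6 and 9.84 CPM with CORT at 5 days, an effect of -1.3 against -0.044 at 3 h (difference adjusted p = 0.00329).

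Gfap, the intermediate filament of astrocytes, was chosen after its values were seen and was at 353, 386, 331 and 376 CPM with vehicle and at 248, 184, 237, 247 and 211 CPM with CORT at 5 days, an effect of -0.68 against 0.0042 at 3 h. Its difference of -0.68 (adjusted p = 0.0336) kept its size without the 3 mice with choroid plexus transcripts, at -0.68, and lost the call there (adjusted p = 0.129). Without continuous vehicle mouse H4 alone the adjusted p was 0.0963. Of the 20 astrocyte genes tested, 2 rose and 0 fell at 3 h (0.885% and 0.27% of all genes), whereas 5 rose and 5 fell at 5 days (0.736% and 1.52%). The difference passed for 2 upward and 3 downward (0.0405% and 0.25% of all genes). At 5 days 3 rose and 3 fell without the 3 mice. The astrocyte list thus moved in both directions at 5 days, with a median log2 effect of -0.074.

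Microglial and adhesion genes were also among the 29. Trem2, the lipid-sensing receptor of microglia, was at 11.6, 10.9, 10.5 and 8.94 CPM with vehicle and at 8.11, 5.54, 5.95, 7.09 and 6.17 CPM with CORT at 5 days, an effect of -0.67 against 0.055 at 3 h (difference adjusted p = 0.0426). Fcrls, a receptor gene typical of mouse microglia, fell by 0.83 at 5 days with an effect of -0.12 at 3 h (difference adjusted p = 0.0426). Without the 3 mice with choroid plexus transcripts, the differences were -0.81 for Trem2 (adjusted p = 0.0791) and -0.75 for Fcrls (adjusted p = 0.129). Without continuous vehicle mouse H1 alone, the adjusted p was 0.118 for Trem2 and 0.101 for Fcrls. Together with the shared Cx3cr1 and P2ry12 and with Itgam and Aif1, named to complete the count, 6 of the 20 microglia genes tested fell at 5 days, 2 fell at 3 h and none rose, against 1.52% and 0.27% of all genes that fell. At 5 days 5 fell without the 3 mice, and Aif1 was at -0.7 (adjusted p = 0.0904). Vcam1, the vascular cell adhesion molecule, was chosen after its values were seen and was at 26.3, 31.4, 26.2 and 29 CPM with vehicle and at 16, 17.4, 14.6, 17.2 and 14.4 CPM with CORT at 5 days (difference -0.72, adjusted p = 0.00357).

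Further genes of the 29 were chosen after their values were seen. Fabp5, another fatty acid binding protein gene, fell by 0.45 at 5 days with -0.035 at 3 h, and Pltp, a phospholipid transfer protein, by 0.85 with 0.026. Mdk, the growth factor midkine, fell by 0.7 with 0.1 at 3 h, S100a6, a calcium-binding protein, by 1.1 with -0.044, and Ncan, the brain proteoglycan neurocan, by 0.38 with -0.048. Slc38a3, a glutamine carrier of astrocytes, fell by 0.65 at 5 days with 0.015 at 3 h, and Tril, an astrocyte partner of Toll-like receptors, by 0.61 with 0.13. The largest drop was that of Lag3, an immune checkpoint receptor, by 1.35 at 5 days with -0.054 at 3 h (difference adjusted p = 0.0251). The calls of the difference were lost with 1 continuous mouse left out for Lag3 (adjusted p up to 0.067 without CORT mouse H20), Fabp5 (0.0784 without vehicle mouse H1) and Ncan (0.123 without vehicle mouse H4). Leaving out the 3 mice with choroid plexus transcripts gave differences of -1.31 for Lag3 (adjusted p = 0.081) and -0.37 for Ncan (adjusted p = 0.0857). Genes on the other strand overlap Pltp and Tril. The interval at 3 h included 0 for 29 of the 33 genes of the 5 days only set, lay above 0 for Etnppl, Lims2 and Sh3pxd2b and below 0 for Aqp4.

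Values of some of the 29 changed when the 3 mice with choroid plexus transcripts were left out. Igfbp2, an insulin-like growth factor binding protein, fell by 0.97 at 5 days and by 0.6 without the 3 mice (adjusted p = 0.0306), with a difference of -1.07 that became -0.82 (adjusted p = 0.0418). Col18a1 and Hfe, chosen after their values were seen, had effects of -1.03 and -0.74 at 5 days. Without the 3 mice these were -0.9 (adjusted p = 0.121) and -0.43 (adjusted p = 0.302), and neither difference was then called (adjusted p = 0.173 and 0.227). A gene on the other strand overlaps Col18a1. Without mouse H17 alone, the adjusted p of the difference was 0.0614 for both Igfbp2 and Hfe, and without H4 it was 0.0611 for Col18a1. Of the 33 genes of the 5 days only set, all 33 kept the sign of the difference in that fit, 29 kept the call at 5 days and 21 the call of the difference. With the summed level of choroid plexus markers as a covariate in each cohort, these numbers were 33, 28 and 21.

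**Figure D3:**
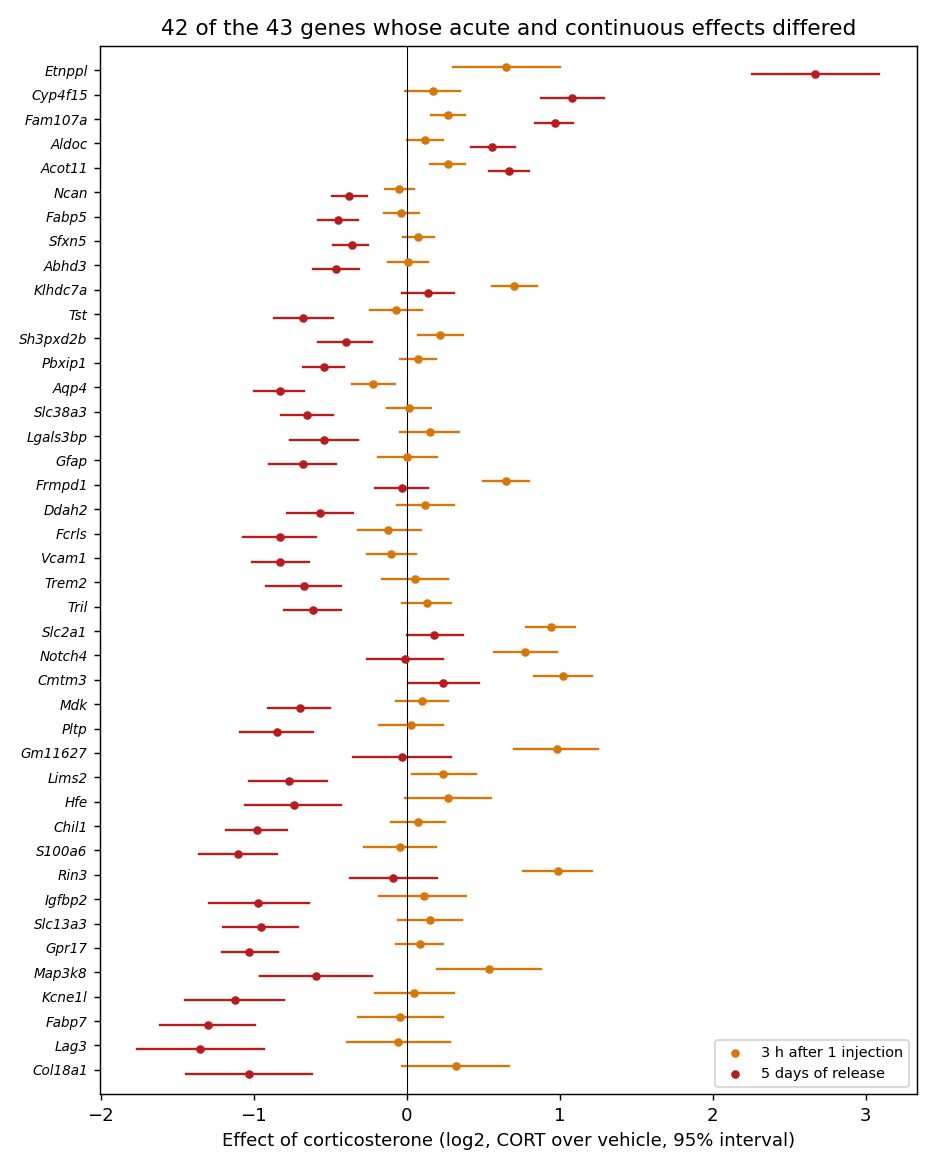
Effect of CORT at 3 h (orange) and after 5 days (red) for 42 of the 43 genes whose effects differed (log2, CORT over vehicle), sorted by the difference, with 95% intervals. At the top, 5 genes were higher after 5 days, and below them are the 7 genes raised at 3 h only, with orange points from 0.65 to 1.02, among genes that fell at 5 days.

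Effects of opposite sign are shown for 3 genes, all chosen after their values were seen. Map3k8, the gene of a kinase in inflammatory signalling, was at 0.698 to 0.951 CPM (median 0.831) in acute vehicle and 0.973 to 1.54 CPM (median 1.2) in acute CORT mice. After 5 days it was at 1.48, 1.52, 1.49 and 1.18 CPM with vehicle and at 1.32, 0.842, 0.955, 0.827 and 0.743 CPM with CORT. The acute groups did not overlap and the continuous ones did. The effects were 0.54 with an interval of 0.2 to 0.88 and -0.59 with an interval of -0.96 to -0.23, neither called, while their difference of -1.13 was (adjusted p = 0.0371) and was lost without continuous vehicle mouse H4 (adjusted p = 0.0963) and without the 3 mice with choroid plexus transcripts (-1.25, adjusted p = 0.094). Sh3pxd2b, an adaptor gene of invasive cell protrusions, fell by 0.4 at 5 days and had an effect of 0.22 (interval 0.074 to 0.37) at 3 h. Its effect at 5 days was -0.43 without the 3 mice (adjusted p = 0.0719). It was called at both times in opposite directions with limma-voom, at 0.28 and -0.36 (adjusted p = 0.0159 and 0.0035), and without acute CORT mouse H8, at 0.27 and -0.4 (adjusted p = 0.0343 and 0.00221). Tspan4, a tetraspanin gene, rose by 0.52 at 3 h and was at -0.29 at 5 days (adjusted p = 0.362), and was called in opposite directions with the choroid plexus level as a covariate, at 0.57 and -0.6 (adjusted p = 0.00235 and 0.014).

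Other gene lists held falls at 5 days, where 1.52% of all genes fell. At 5 days, 3 of 22 genes of cholesterol synthesis and uptake fell, among them Cyp51 by 0.34 (adjusted p = 0.00142) and Hmgcs1 by 0.45 (adjusted p = 0.0303), with a list median of -0.16 against 0.012 at 3 h. At 3 h edgeR, DESeq2 and limma-voom called 0 of these, with 1 at an unadjusted p under 0.05, whereas at 5 days DESeq2 called 6. Of 21 interferon-stimulated genes tested, 3 fell at 5 days (Gbp2 by 0.88, Gbp3 by 1.07 and Psmb9, an immunoproteasome subunit, by 1.02) with list medians of -0.39 at 5 days and -0.038 at 3 h. None was called at 3 h with edgeR, DESeq2 or limma-voom, with 2 at an unadjusted p under 0.05, and reads of Gbp2 and Gbp3 may be shared with related genes. Among 20 genes of immature neurons and neurogenesis, 4 fell at 5 days, including Nes by 0.69 (adjusted p = 0.00148), Hopx by 0.54 (adjusted p = 0.00823) and Sox4 by 0.42 (adjusted p = 0.0168). At 3 h, where 0.27% of all genes fell, 1 of the 20 did, Sox2 by 0.47 (adjusted p = 0.0115). The difference was called by edgeR for none of the genes of these 3 lists, with 8, 5 and 4 at an unadjusted p under 0.05, 2, 0 and 1 called by DESeq2 and 3, 0 and 1 by limma-voom. Of the 34 alternatives, 9 called the difference of Msmo1, of cholesterol synthesis, and 4 that of Cyp51, and the neurogenesis gene Hes5, chosen after its values were seen, was called with the choroid plexus level as a covariate (-1.26, adjusted p = 0.0281). With 1 mouse left out, calls at 5 days were lost for Hmgcs1 (adjusted p up to 0.0884 without CORT mouse H12), Sox4 (0.0786 without vehicle mouse H1), Gbp2 (0.138) and Gbp3 (0.0641), both without vehicle mouse H4, and Psmb9 (0.0803 without CORT mouse H20). With the 3 mice with choroid plexus transcripts left out, the calls at 5 days dropped to 1 in each of the 3 lists, with Hmgcs1 at -0.45 (adjusted p = 0.169), Gbp2 at -0.9 (0.184), Psmb9 at -1.12 (0.109), Nes at -0.64 (0.0537) and Sox4 at -0.39 (0.185). Genes on the other strand overlap Cyp51 and Psmb9, and Sox2ot overlaps Sox2 on the same strand.

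Vessel genes split, since of 24 endothelial and barrier genes 2 rose and 2 fell at 3 h, against 0.885% and 0.27% of all genes, and 1 rose and 4 fell at 5 days, against 0.736% and 1.52%. Kdr and Cdh5 were chosen after their values were seen. Kdr, the receptor of vascular endothelial growth factor, fell by 0.7 at 3 h (adjusted p = 0.0121) and stood at -0.37 at 5 days (adjusted p = 0.309). Without the 3 mice with choroid plexus transcripts, Kdr was at -0.67 at 3 h (adjusted p = 0.013) and at -0.038 at 5 days (adjusted p = 0.981). Cdh5, the cadherin of endothelial junctions, fell by 0.5 at 5 days (adjusted p = 0.0222) and stood at -0.073 at 3 h. Slco1c1, the thyroid hormone transporter of brain vessels, fell by 0.64 at 5 days (adjusted p = 0.000198) with an effect of -0.29 at 3 h (adjusted p = 0.0901). Among 14 genes of metallothioneins and zinc transporters, Mt1 rose by 0.48 and 0.52 and Mt2 by 0.71 at 3 h, with 0.46 at 5 days (adjusted p = 0.138). Sgk1, the serum and glucocorticoid regulated kinase, rose by 1.08 at 5 days (adjusted p = 0.00592), and its effect at 3 h was 0.63 (adjusted p = 0.113) with overlapping groups. Of the inducible heat shock proteins, Hspa1a rose by 0.57 and Hspa1b by 0.71 at 5 days, and this pair of near-identical genes is uncertain in counting. Hsd11b1, whose enzyme regenerates corticosterone in cells, fell by 0.49 at 5 days (adjusted p = 0.0303) and stood at -0.011 at 3 h. The immediate early gene Maff rose by 1.12 and 1.75. Ddit4, a brake on mTOR, rose by 0.54 at 5 days (adjusted p = 0.021) and had an effect of 0.21 at 3 h. The glutamate receptor gene Grm3 fell by 0.36 at 5 days (adjusted p = 0.0327). Of 25 genes of glucose transport and energy use, 1 rose and 1 fell at 3 h (0.885% and 0.27% of all genes) and 2 fell at 5 days (1.52%), all described above. Neither effect was called by edgeR for any of the 22 clock genes, Per1 included (0.26 with adjusted p = 0.292 and 0.18 with adjusted p = 0.571), of which 4 at 3 h and 2 at 5 days had an unadjusted p under 0.05, and DESeq2 called 0 and 1 and limma-voom 1 and 1. An exception in edgeR was Dbp, chosen after its values were seen, at -0.47 at 5 days (adjusted p = 0.247) but called at -0.88 without the 3 mice with choroid plexus transcripts (adjusted p = 0.00826) and at -0.91 with the covariate (adjusted p = 0.00352). EdgeR also called neither effect, in these 3 fits, for any of 11 serotonin receptor genes (1 and 4 unadjusted, with 0 and 3 called by DESeq2 and by limma-voom), 44 potassium channel genes (3 and 4 unadjusted, 0 and 2 called by DESeq2, 1 and 2 by limma-voom), 13 genes of neurotrophins and their receptors (2 and 1 unadjusted, 0 and 1 called by DESeq2, 1 and 1 by limma-voom) and 20 neuropeptide genes (0 and 1 unadjusted, 0 called by either tool). With 1 mouse left out, calls of this paragraph were lost for Mt1 at both times (adjusted p up to 0.122 without acute CORT mouse H11 and 0.161 without continuous vehicle mouse H6), for Maff at 3 h (0.0581 without acute CORT mouse H11) and at 5 days for Ddit4 (0.0826) and Grm3 (0.0911), both without vehicle mouse H6, Hsd11b1 (0.101 without CORT mouse H20) and Hspa1b (0.121 without vehicle mouse H1). In the fit that leaves out the 3 mice with choroid plexus transcripts, Mt1 was at 0.44 at 3 h (adjusted p = 0.0775) and 0.35 at 5 days (0.481), and Mt2 at 0.66 (0.00623) and 0.22 (0.767). At 5 days the calls were then also lost for Sgk1 at 1.07 (adjusted p = 0.103), Hspa1a at 0.54 (0.0968), Hsd11b1 at -0.54 (0.118), Ddit4 at 0.48 (0.204) and Grm3 at -0.37 (0.184). A gene on the other strand overlaps Hsd11b1.

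The genes that could not be placed mostly moved the same way at both times. Of the 118 called at 3 h without a call for the difference, 100 had an effect of the same sign at 5 days (84.7%), and of the 255 called at 5 days 207 had one at 3 h (81.2%), against 55.2% of all genes. The rule for this set raises these shares, since genes with a called difference were placed elsewhere. The sign was the same for 42.9% of the 3 h only and 39.4% of the 5 days only genes. The 3 genes given here were chosen after their values were seen. Zbtb16, a zinc finger gene and GR target, is an example, since its log2 effect was 0.47 at both times, with an adjusted p of 0.0274 at 3 h and of 0.0539 at 5 days. Klf9, a transcription factor gene induced by glucocorticoids and thyroid hormone, had 0.13 at 3 h (adjusted p = 0.336) and rose by 0.25 at 5 days (adjusted p = 0.0258), with a difference of 0.12 (adjusted p = 0.745). Angptl4, an inhibitor of lipoprotein lipase, rose by 0.77 at 3 h (adjusted p = 0.0384) and stood at 0.076 at 5 days (adjusted p = 0.953), and still its difference of -0.69 was not called (adjusted p = 0.511). Both calls were lost without the 3 mice with choroid plexus transcripts, with Klf9 at 0.17 at 5 days (adjusted p = 0.397) and Angptl4 at 0.72 at 3 h (adjusted p = 0.0943).

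**Figure D4:**
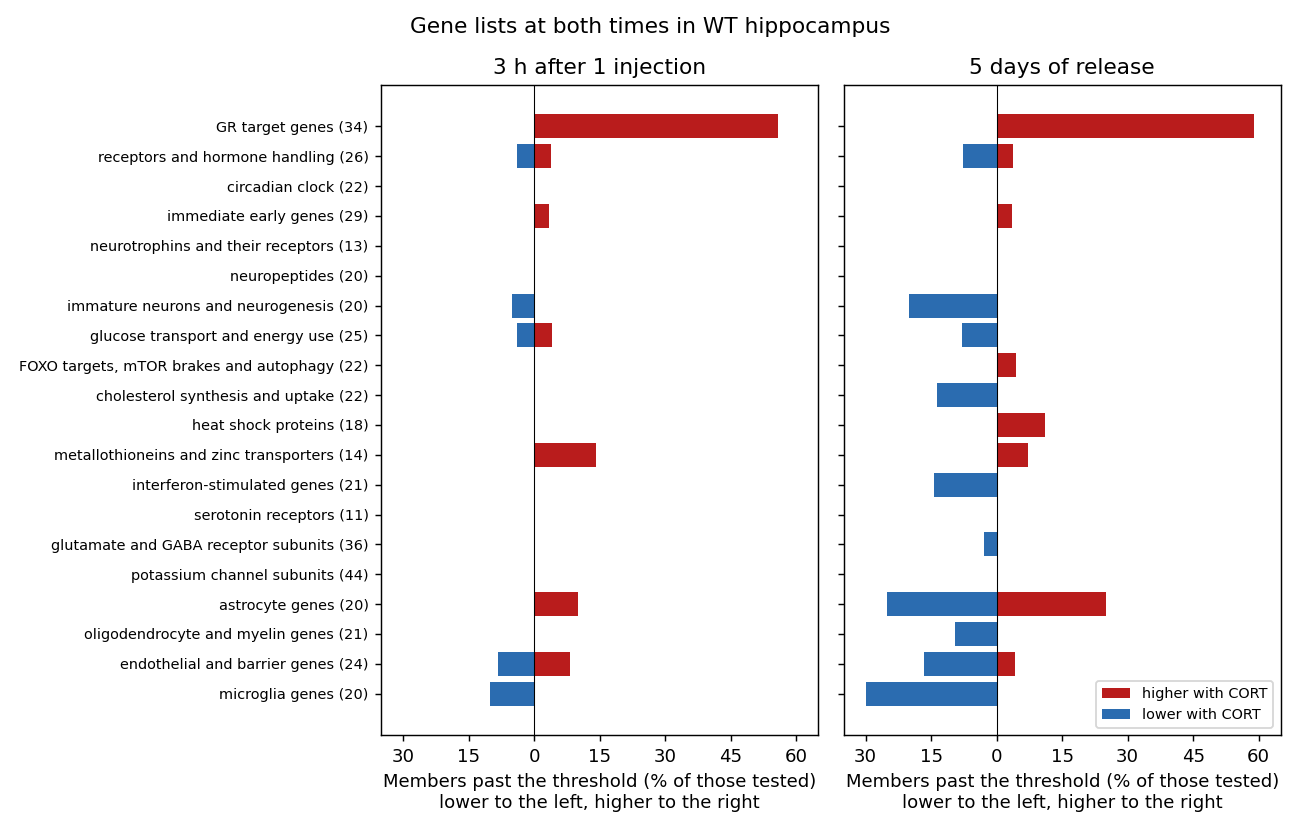
Share of the tested members of 20 gene lists past the threshold (percent, list size in brackets) at 3 h on the left and after 5 days on the right, with genes higher with CORT in red to the right and lower in blue to the left. GR targets rose in like numbers at both times, 19 and 20 of 34, and microglia genes had 2 and 6 of 20 lower. Without the 3 mice with choroid plexus transcripts 17 and 7 GR targets rose. The lists were chosen with earlier results of these data known.

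The tissue marker lists also held calls at 5 days. Of the 5 blood markers, 4 rose, against 0.736% of all genes (Hbb-bs by 1.34 and Hba-a1 by 1.15, which have near-identical copies). At 3 h 0 were called by edgeR, DESeq2 or limma-voom, with 3 at an unadjusted p under 0.05, and with the choroid plexus level as a covariate Hba-a1 was called (0.94, adjusted p = 0.0293). Enpp2, which choroid plexus holds at high levels, fell by 2.09 (adjusted p = 0.0462) and was at -0.29 without the 3 mice (adjusted p = 0.869), and Col1a2 of meningeal fibroblasts fell by 0.92 (adjusted p = 0.0443). Without vehicle mouse H17 alone the effects were -1.15 for Enpp2 (adjusted p = 0.391) and -0.63 for Col1a2 (adjusted p = 0.268), and without vehicle mouse H6 the adjusted p of Hba-a1 was 0.118. In the fit without the 3 mice none of these was called at 5 days, with Hbb-bs at 1.37 (adjusted p = 0.0669), Hba-a1 at 1.11 (0.146) and Col1a2 at -0.76 (0.243). Of the 12 hippocampal neuron markers, Spink8 rose by 1.05 at 5 days (adjusted p = 0.021), where vehicle mouse H4 was far below the other vehicle mice, and none of the 8 thalamus and 8 striatum markers was called by edgeR at either time, with 1 and 0 at 3 h and 3 and 2 at 5 days at an unadjusted p under 0.05. DESeq2 called 1 thalamus marker at 5 days, and edgeR with the covariate called Tcf7l2, chosen after its values were seen, at -2.38 (adjusted p = 0.04). A CORT mouse of the continuous cohort, H15, had a summed level of striatum markers of 332 CPM, against at most 173 in the others. Without CORT mouse H20, Spink8 was not called (adjusted p = 0.0567). With the choroid plexus level as a covariate its effect at 5 days was 1.59 (adjusted p = 0.00507). Its difference was then called, at 1.62 (adjusted p = 0.0448), against 1.02 without the covariate (adjusted p = 0.311). The part of these tissues in the results above was not tested beyond the fits without the 3 mice and with the covariate.

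The genes altered in one cohort were then followed in the mice of the other, as the mean log2 CPM over the genes relative to the vehicle mice of that cohort. The 131 genes raised at 3 h stood at 0.32 to 0.42 in the 5 continuous CORT mice and at -0.11 to 0.14 in the 4 vehicle mice, and the 40 genes lowered at 3 h at -0.41 to -0.23 and at -0.039 to 0.052. In the acute cohort, the 109 genes raised at 5 days stood at 0.38 to 0.45 in the 6 CORT mice and at -0.084 to 0.13 in the 6 vehicle mice. None of these 3 scores overlapped between vehicle and CORT. The 225 genes lowered at 5 days were at -0.19 to -0.057 in the acute CORT mice and at -0.16 to 0.085 in the acute vehicle mice, which overlapped.

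The same difference was computed in the AS mice of these cohorts, which none of the selection above had used, with 6 vehicle and 6 CORT mice at 3 h and 4 and 5 mice at 5 days. Of the 43 genes whose effects differed in WT mice, 41 had a difference of the same sign in AS mice (95.3%, against 51.1% of all 14809 genes), and 28 of the 43 passed the threshold there with that sign, where 365 of all genes tested passed. The 7 genes altered at 3 h only all had a difference of the same sign and 3 passed, namely Frmpd1, Cmtm3 and Klhdc7a. Their AS effects at 5 days were mostly positive, at 0.62 for Gm11627, 0.57 for Cmtm3, 0.55 for Slc2a1 and 0.43 for Klhdc7a. Notch4 was at 0.39, Rin3 at 0.19 and Frmpd1 at -0.057. The shared sign therefore does not mean that the effect at 5 days was absent in AS mice. For Slc2a1 the difference in AS mice was -0.37 (adjusted p = 0.1). Of the 33 genes altered at 5 days only, 31 had the same sign and 23 passed, with differences of 2.77 for Etnppl, -0.77 for Gpr17, -0.91 for Aqp4 and -2.36 for Fabp7. The exceptions in sign were Pltp, at 0.061, and Lgals3bp, at 0.038. In WT mice the difference of Lgals3bp was -0.64 without the 3 mice with choroid plexus transcripts (adjusted p = 0.119). Reads set aside for low alignment quality numbered 2640 to 2785 in the acute AS CORT mice and 1877 to 2850 in the acute AS vehicle mice, against 1929 to 2237 in the acute WT mice. Every acute AS CORT mouse was thus above every acute WT mouse, while the acute AS vehicle mice spanned both ranges. The AS effect at 3 h is therefore tied in part to this trait of the libraries, and its part in these values was not tested.

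**Figure D5:**
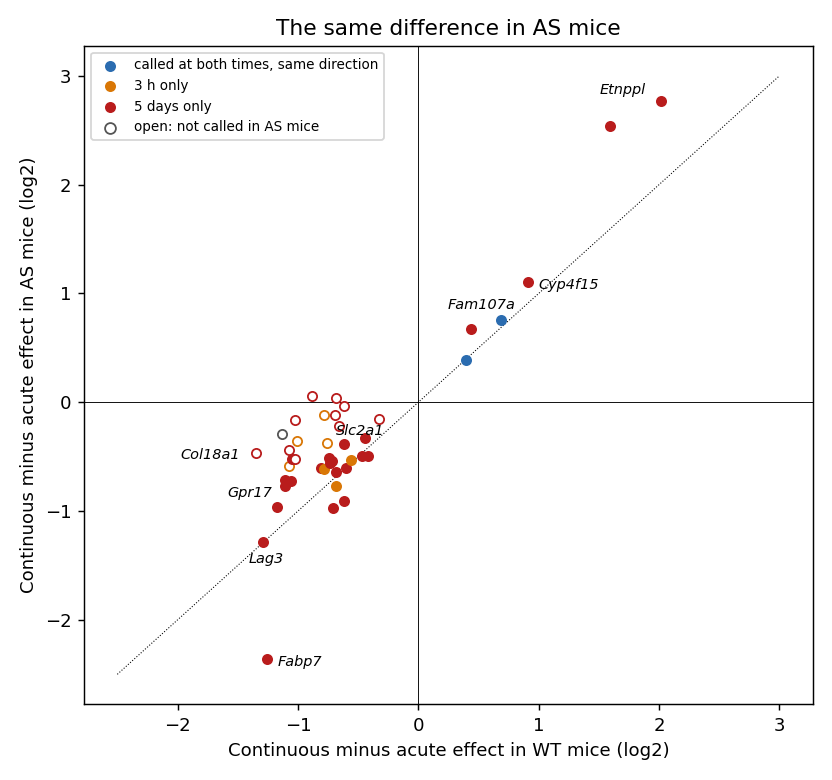
Difference between the continuous and the acute effect in WT mice (x axis) and in AS mice (y axis), both log2, for the 43 genes called in WT mice. Filled points passed the threshold in AS mice as well (28), and the dotted line marks equal differences. 41 points lie in the quadrants of equal sign.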

How the data were processed

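Hippocampal RNA-seq libraries of 21 WT mice were used. The authors mapped 100-bp paired-end reads of stranded mRNA libraries to mm10 (STAR within BioWDL v5.0.0), ran HTSeq-count and deposited the raw read counts of each mouse, without normalization or pooling. HTSeq-count rows that name no gene (11.8% to 14.9% of reads) were left out, and 0 columns belonged to no sample. The tables share 52225 gene IDs, with 99.9% of the counts of each. Symbols and positions came from GENCODE release M21 (GRCm38), found for 14807 of 14809 genes tested. The annotation release of the counts and their use of strand are not given in the sources used here.

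A gene was tested where 3 or more mice of any group exceeded 20 counts after median-of-ratios scaling. Tests were quasi-likelihood F tests (edgeR 4.0.16, R 4.3.3, TMM factors) with 1 coefficient for each of the 4 groups, and Benjamini-Hochberg adjustment ran across every gene tested (threshold 0.05). Errors are standard errors, and 95% intervals are not adjusted. Log2 CPM used a prior count of 2. AS mice were fitted with the WT mice (42 libraries, 8 groups). Mice of a group are separate animals. Libraries of a group differed by more than counting noise (chi-square per gene of at least 5.75 for every pair). The fits were tested on simulated data.

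Named genes were Nr3c1, Nr3c2, Fkbp5, Tsc22d3, Sgk1 and Per1, up to 5 per direction of the shared, 3 h only and 5 days only sets by smallest p (predicted genes and clones aside), and up to 4 called members of each of 26 lists, and others are named as chosen after their values were seen or as exceptions to a count. The members and lists were chosen with earlier results of these data known. Alternatives were DESeq2 1.42.0, other size factors, limma-voom (limma 3.58.1) with quality weights, other filters, all 42 hippocampal libraries, H13 kept, a threshold of 0.01, GC and length offsets and each mouse left out. Fits without acute H6 and H8, without the 3 mice with high choroid plexus transcripts, with these transcripts as a covariate and of each cohort alone were added after seeing the data. The values of 1 gene are not reported here.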

Additional observations from a re-analysis of the deposited data

Results flagged for a closer look

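Of 256 gene and group pairs of the named genes, 13 held a mouse far from the rest of its group by Dixon's 95% critical value, which chance passes in about 1 in 20 groups. Choroid plexus transcripts stood high in acute vehicle mouse H6, where Enpp2 was at 504 CPM and the next mouse at 138. In continuous vehicle mouse H4, Spink8, a marker of hippocampal CA fields, was at 3.13 CPM (others 12.2 to 14.2), Aqp4 at 147 (others 124 to 128) and Nr3c2 at 183 (others 213 to 218), and in mouse H6 of that group Ddit4 was at 53.1 (others 63 to 64.2). Acute CORT mouse H8 had Gpr17 at 70.5 (others 86.1 to 94.8) and Hsd11b1 at 32.3 (others 18.6 to 22.3), and H7 had Rgs20 at 14.5 (others 11.3 to 12). Among continuous CORT mice, Frmpd1 was at 14.4 in H20 (others 11.4 to 11.8), Psmb9 at 0.437 in H20 (others 0.782 to 0.837), Mt1 at 403 in H3 (others 276 to 303) and Pbxip1 at 43.5 in H12 (others 48.5 to 49.8). In acute vehicle mouse H3, Slco1c1 was at 35.3 (others 45.6 to 50.5).

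The effect of CORT differed between the times by the test of the difference itself for 19 of the named genes described here. On the log2 scale, continuous minus acute, it was 2.02 for Etnppl, 0.91 for Cyp4f15, 0.69 for Fam107a and 0.44 for Aldoc. It was negative for genes that fell at 5 days, with -1.26 for Fabp7, -1.11 for Gpr17, -1.11 for Slc13a3, -1.07 for Igfbp2, -1.05 for Chil1, -1.02 for Lims2, -0.73 for Trem2, -0.71 for Fcrls, -0.62 for Aqp4 and -0.62 for Pbxip1. For genes that rose at 3 h it was -1.07 for Rin3, -0.78 for Cmtm3, -0.76 for Slc2a1, -0.68 for Frmpd1 and -0.56 for Klhdc7a.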

How the results depend on the processing

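None of the effects and differences of the named genes that passed the threshold, in the main or the alternative fit, changed direction under an alternative. Of the 43 differences, 18 passed the threshold under all 34 alternatives and 23 with any 1 mouse left out. DESeq2 gave 262 genes at 3 h, 509 at 5 days, 107 differences, 72 shared, 24 at 3 h only and 72 at 5 days only. Limma-voom gave 285, 850, 95, 85, 27 and 61, with 1 opposite. With all 42 libraries there were 74 differences, 12 genes at 3 h only and 56 at 5 days only. With H13 kept, 100 genes passed at 3 h and 524 at 5 days. At a threshold of 0.01 there were 79, 138, 22, 19, 3 and 18. Upper-quartile factors gave 11 and the GC and length offsets 12 genes at 3 h only. Without acute H6 and H8 there were 16 genes at 3 h only and 1 opposite. Without the 3 mice with high choroid plexus transcripts, 126 genes passed at 5 days and 18 were shared, and with the covariate 183 and 23, with 1 opposite (Tspan4). With 1 mouse left out, the counts ran from 188 to 431 at 5 days (lowest without continuous vehicle H17, 191 without CORT H20 and 211 without CORT H12), from 26 to 68 for the difference (26 without continuous CORT H20, 27 without H12 or without vehicle H4, and 68 without acute CORT H8), from 3 to 21 at 3 h only (3 without continuous vehicle H4, 4 without CORT H12 and 21 without acute CORT H8), from 20 to 38 at 5 days only (lowest without continuous CORT H20) and from 0 to 1 for opposite directions (1 without acute CORT H8). The other counts stayed within 1.5 times. The cause of these shifts was not tested. No paired analysis was possible because the labels give no replicate numbers shared between groups.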
